A study of Mus musculus with 81 samples.

Results

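MMERGLN elements are a family of mouse endogenous retroviruses of the gammaretrovirus-like class, related to the murine leukaemia viruses. RepeatMasker annotates the coding part of such an element as an internal region, MMERGLN-int, and its flanking long terminal repeats as MMERGLN_LTR. The members were all loci whose species name began with MMERGLN in the deposited tables of RNA from mouse endogenous retrovirus (mERV) loci. There were 1289 of them among 970384 LTR-class loci of 680 species, and they comprised 856 internal regions and 433 LTRs.

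RNA came from testes of E18.5 fetuses of the OG2 strain, which carries an EGFP transgene driven by Pou5f1 regulatory sequences that marks germline cells and is kept on a C57BL/6J background. Sorting gave EGFP-positive germ cells in 2 populations, P4 and P5, that differ in side scatter, and EGFP-negative somatic cells, P6, which may hold every other cell type of the testis. F0 dams drank water with 50 nM tributyltin (TBT), an organotin compound, or the vehicle 0.1% DMSO from 7 days before mating until weaning. Their F1 fetuses were exposed in utero, and F3 fetuses descended from them by mating within each exposure group, with no further exposure. All of the animals, controls included, carried the transgene. The F1 RNA libraries comprised 5 DMSO and 7 TBT libraries of P4, 4 and 7 of P5, and 5 and 7 of P6. The F3 RNA libraries comprised 4 DMSO and 5 TBT libraries of each population. Methylated DNA from P6 cells was sequenced in 3 DMSO and 4 TBT libraries of F1 and in 5 DMSO and 7 TBT libraries of F3. The tables used here hold LTR loci only, so marker genes of germ and somatic cells were not analysed here.

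An LTR retrovirus is transcribed from a promoter in its 5′ LTR, and the transcript ends after a polyadenylation signal in the 3′ LTR. Reverse transcription starts from a host tRNA that pairs with a primer binding site just after the 5′ LTR, and endogenous families are commonly named after that tRNA. The germ line is the only place where a new copy can enter the next generation, and fetal male germ cells reset the DNA methylation that silences many such copies. A locus in an intron can also collect reads from the transcript of the gene that holds it.

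The primer binding sites are shown because they bear on the name, in which GLN stands for glutamine. In 37 copies, an internal region of at least 7000 bp lay between LTRs of at least 400 bp, and these are called complete proviruses below. All 37 had TGG within 12 bases of the 5′ LTR, and the 18 bases from that point were compared with the 3′ ends of all nuclear tRNA genes of the RefSeq annotation of GRCm38, with CCA added. Of these sites, 28 were identical to the complement of a tRNA-Gln end and 4 to that of a tRNA-Thr end. A further 4 were nearest to tRNA-Gln with 1 mismatch, and 1 site was equally near to both. The sequences are given 5′ to 3′, with capitals for a base that differed from the nearest tRNA end.
Most frequent site, 21 proviruses, tRNA-Gln, as at chr1:52313143-52313160 (plus strand): tggaggtcccaccgagat
Second site, 7 proviruses, tRNA-Gln, as at chr2:94801496-94801513 (plus strand): tggaggttccaccgagat
Site of 4 proviruses, tRNA-Thr, as at chr12:43961428-43961445 (minus strand): tggaggccccagcgagat
Site of 2 proviruses, 1 mismatch to tRNA-Gln, as at chr3:3339390-3339407 (plus strand): tggaggttccaccAagat

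The 5′ LTR of the complete provirus with the highest mean level is shown because it holds both transcription signals of the family. The last 300 bases of this 430 bp LTR lie at chr8:121832975-121833274 on the plus strand (GRCm38). Capitals mark the TATA box sequence TATAAA, which began at base 240 of the LTR, and the polyadenylation signal ATTAAA, which began at base 324.
MMERGLN_LTR, 5′ LTR of the provirus on chromosome 8: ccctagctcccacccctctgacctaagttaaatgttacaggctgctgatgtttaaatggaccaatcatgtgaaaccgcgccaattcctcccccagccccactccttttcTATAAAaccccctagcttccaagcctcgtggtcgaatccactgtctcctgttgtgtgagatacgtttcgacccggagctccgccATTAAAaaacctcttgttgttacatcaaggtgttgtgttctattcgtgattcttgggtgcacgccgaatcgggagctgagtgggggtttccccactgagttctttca

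Both motifs were present in the 5′ LTR of 37 of the 37 complete proviruses. Among the 348 MMERGLN_LTR loci of at least 400 bp, searched on both strands, TATAAA was found in 98.6% and ATTAAA in 97.1%. Among all 53412 LTR loci of 400 to 450 bp the shares were 33.9% and 28.6%. A match is a description of the letters and does not show that the motif is used.

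Most members were fragments. The internal regions measured 11 to 7637 bp with a median of 522.5 bp. Identity was taken over the best-aligned stretch to a reference copy, the complete provirus with the longest open reading frame. The median identity of the internal regions was 72.6%, with 113 too short or too diverged to be aligned. The LTRs measured 13 to 512 bp with a median of 430 bp, and their median identity was 94.9%. When loci within 1000 bp were joined into copies, 554 copies held an internal region alone, 289 an LTR alone, 56 an internal region between LTRs, and 19 an internal region with an LTR on one side. Internal regions held 0.90 CpG per 100 bases and LTRs 2.79. Of the internal regions, 35 overlapped an exon of GENCODE vM21, 114 lay in introns and 707 outside genes, and of the LTRs these numbers were 11, 90 and 332. Among intronic loci whose orientation could be set, 75 internal regions lay antisense and 18 sense to the gene, and 55 LTRs lay antisense and 28 sense.

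Among the complete proviruses, the LTRs of one provirus were identical in 13 of the 37 and their median identity was 99.8%, with 91.5% as the lowest. The longest open reading frame of an internal region ran from 265 to 1456 codons with a median of 886, and 15 proviruses had a frame of more than 1000 codons. Of the 37, 27 lay outside genes.

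Values below are CPM, read counts scaled to library size by the authors with the trimmed mean of M-values (TMM), and each value was a whole number of reads. Recovered reads over all LTR loci ran from 3890178 to 6304053 in F1 P4, from 3835481 to 5761940 in F1 P5, from 2824806 to 3830400 in F1 P6, and from 4104928 to 7760769 in F3 P6. They were more uneven in F3 germ cells, at 833449 to 7216887 in P4 and 246520 to 8161548 in P5. P5 TBT library 5 (246520 reads), P5 DMSO library 2 (1606422), P4 TBT library 5 (833449) and P4 TBT library 9 (1187234) held under 2000000, and F3 germ cell results are given with and without them where they matter. Levels in P6 and in germ cells, and in F1 and F3, come from separately normalised tables and are set side by side without a test. In bulk libraries, fewer expressing cells and less RNA per cell cannot be told apart.

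Internal regions summed to more CPM than LTRs in every population, and their total was highest in somatic cells through 5 loci in one intron, described below. The MMERGLN-int total was 432 ± 48.4 CPM (SD, n = 12) in F1 P4, 679 ± 129 (n = 11) in F1 P5 and 1261 ± 229 (n = 12) in F1 P6. In F3 it was 368 ± 80.8 in P4, 849 ± 306 in P5 and 1082 ± 175 in P6 (n = 9 each). The order P4, P5, P6 of the means was thus the same in both generations, and the ranges of F3 P5 (181 to 1301) and F3 P6 (907 to 1459) overlapped. The MMERGLN_LTR total was 133 ± 17.6, 199 ± 56.8 and 309 ± 23.1 CPM in F1 P4, P5 and P6. In F3 it was 186 ± 70.0, 315 ± 176 and 303 ± 9.08 CPM, so that P5 and P6 did not differ beyond their spread. Without the 5 internal loci in an intron of Ptn, which made up 62.2% of the mean F1 P6 total and 57.4% of that of F3 P6, the internal total was highest in P5. It was then 425 ± 49.5, 662 ± 129 and 477 ± 112 CPM in F1 P4, P5 and P6, and 366 ± 79.7, 831 ± 299 and 461 ± 53.1 CPM in F3. These totals sum loci of unequal length and are not levels per length. Whether reads of one intron were counted at several of its loci, which would count them more than once in a total, was not tested.

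**Figure D1:**
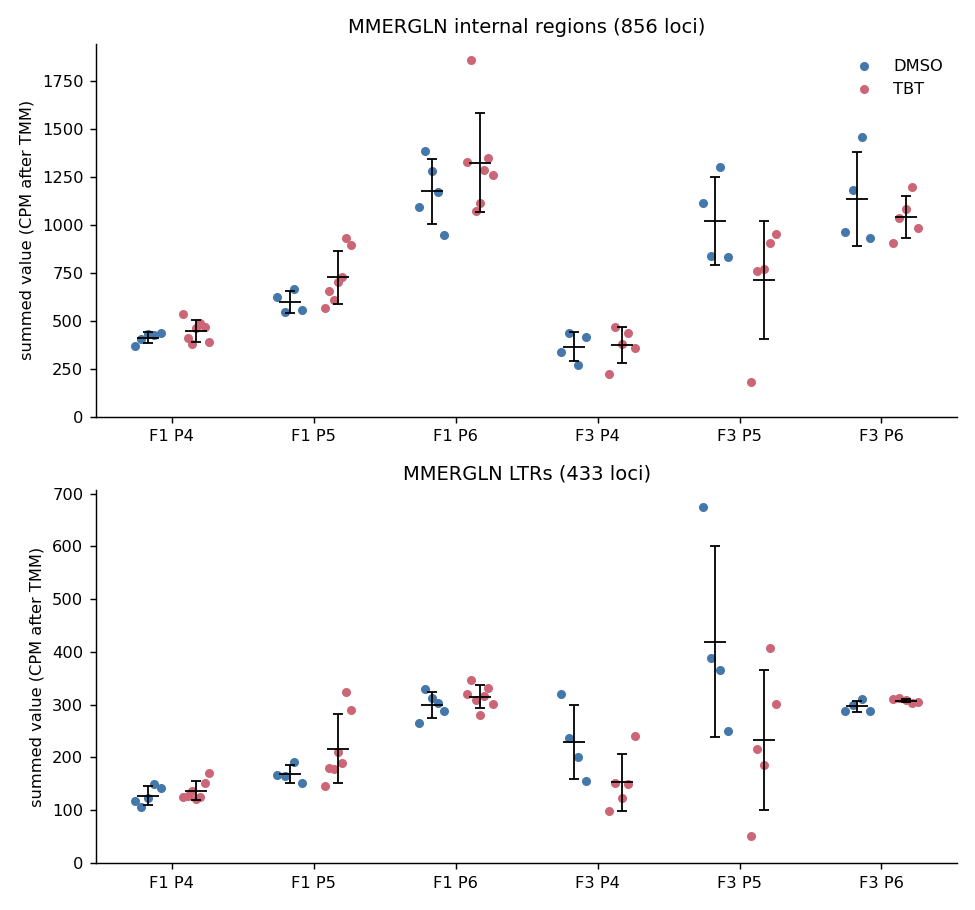
Summed level in CPM of MMERGLN internal regions and of MMERGLN LTRs in each RNA library of the 6 populations, with DMSO and TBT libraries marked separately. Each point is 1 library, and black marks give the group mean with its SD. F1 P6 TBT library 11, at 1858 CPM, and F3 P5 TBT library 5, at 181 CPM, lie apart from the rest of their groups.

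The sources of these totals differed between populations. In P6, intronic loci held 73.0% of the MMERGLN-int total in F1 and 70.4% in F3, and loci outside genes 5.50% and 2.39%. In P5, loci outside genes held 41.8% in F1 and 56.7% in F3, against 22.9% and 39.1% in P4. For internal regions and LTRs together, loci outside genes gave 20%, 38.5% and 4.95% of MMERGLN reads in F1 P4, P5 and P6, and 34.4%, 52.5% and 2.07% in F3. The same share over all LTR loci was 2.16%, 5.65% and 2.30% in F1 and 5.25%, 14.8% and 1.35% in F3. The mean MMERGLN share was thus the higher in each population. The F1 P6 MMERGLN share ran from 1.39% to 2.89% in DMSO libraries and from 1.12% to 19.3% in TBT libraries. Its median over all F1 P6 libraries was 2.80%. Per length, internal regions outside genes were read at 0.667 to 1.15 times the density of all LTR loci outside genes in F1 P4 libraries and at 0.945 to 2.27 times in F1 P5. In F3 these ranges were 0.420 to 0.991 in P4 and 0.457 to 1.57 in P5, and in P6 0.345 to 0.935 in F1 and 0.277 to 0.557 in F3.

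**Figure D2:**
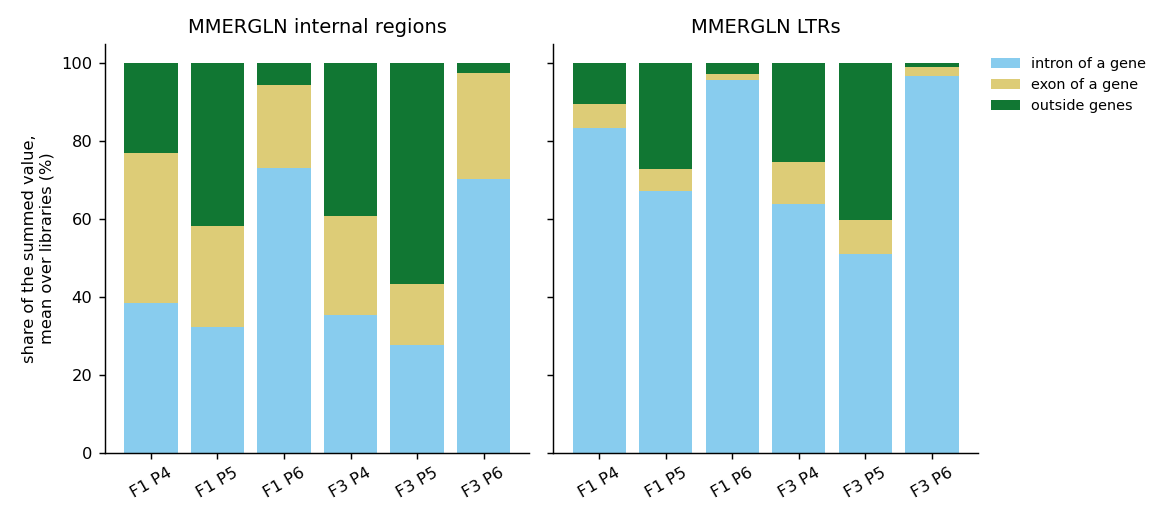
Share in percent of the summed level of MMERGLN internal regions (left) and LTRs (right) that came from loci in introns, in exons and outside genes, as the mean over the libraries of each population. For internal regions the share outside genes is highest in P5, at 41.8% in F1 and 56.7% in F3, and introns hold 73.0% and 70.4% in P6.

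A few loci made up most of the totals in P4 and P6, while P5 drew on many. Internal loci with the highest means reached 50% of the MMERGLN-int total with 3 loci in F1 P4, 11 in F1 P5 and 4 in F1 P6, and with 4, 23 and 4 in F3. Internal loci with a read in any library numbered 254, 489 and 351 in F1 P4, P5 and P6, and 235, 411 and 147 in F3.

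The locus with the highest mean over the 6 populations was MMERGLN-int at chr2:156831133-156833492, 2360 bp that overlap an exon of the lincRNA Gm14230 on the same strand. It averaged 160, 148 and 221 CPM in F1 P4, P5 and P6 and 88.1, 105 and 226 CPM in F3, and it alone made up 36.9% of the F1 P4 total. Unlike most members it was high in each population, and its P5 minus P4 difference was −0.07 ± 0.13 on the log2 scale in F1 (limma, adjusted p = 0.705). The 148 bp internal fragment at chr17:84972384-84972531, in an intron of Ppm1b, a protein phosphatase gene, also ranked among the 8 highest. It averaged 39.5, 28.6 and 20.7 CPM in F1 P4, P5 and P6, and fell in F1 P5 against P4 by 0.47 on the log2 scale (SE 0.09, adjusted p = 3.9e-05).

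Next came 5 internal fragments in one intron of Ptn, the gene of the growth factor pleiotrophin, all antisense to it, between chr6:36727326 and chr6:36735653. Their lengths ran from 281 to 4109 bp, yet their means in F1 P6 lay between 156 and 160 CPM, and in F3 P6 between 123 and 129 CPM. In germ cells their means were lower, at 1.41 to 1.76 CPM in F1 P4 and 2.05 to 6.71 CPM in F1 P5. In F3 they were 0.286 to 1.21 CPM in P4 and 0.936 to 10.5 CPM in P5. Together the fragments held most of the P6 total, and they rose and fell together across P6 libraries. In F1 P6 TBT library 6 each of the 5 held 457 reads. In TBT library 11 they held 755 to 759 reads, and in TBT library 7 363 to 411. Whether these were the same reads counted at each fragment was not tested, so the fragments are not 5 separate observations. The 281 bp fragment ran from 106 CPM in DMSO library 4 to 291 CPM in TBT library 11 in F1, and from 97.05 to 179 CPM in F3. The remaining locus of the 8 highest, a 340 bp LTR at chr8:77700632-77700971 in an intron shared by Ednra, an endothelin receptor gene, and 4933431K23Rik, averaged 97.1 CPM in F1 P6 and 105 CPM in F3 P6. In the germ cell groups its means were at most 2.26 CPM.

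**Figure D3:**
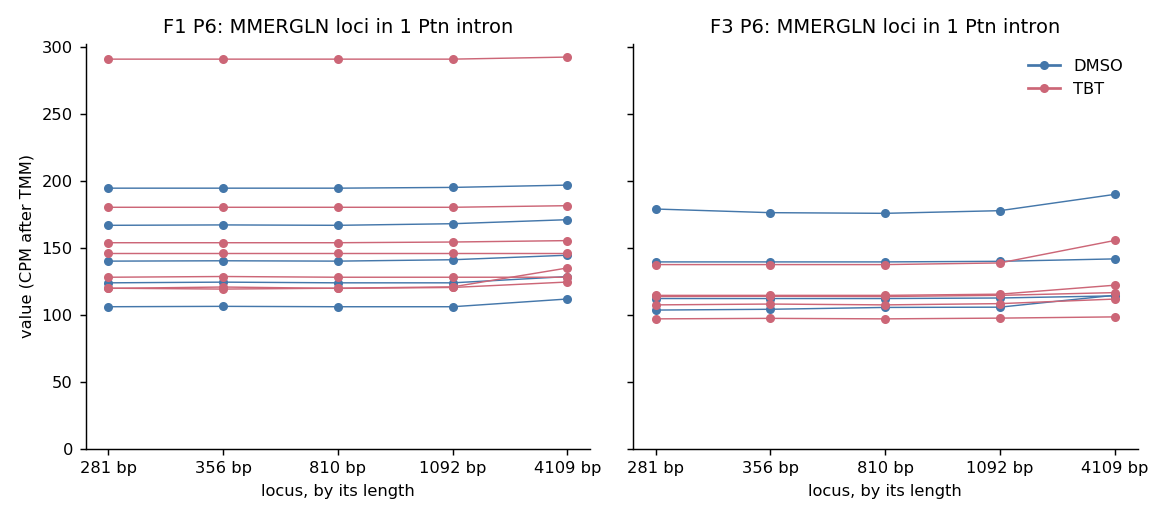
Level in CPM of the 5 MMERGLN internal fragments in the Ptn intron in P6 libraries of F1 (left) and F3 (right), placed by fragment length, with each line joining the values of 1 library. The lines are almost level from 281 to 4109 bp, and F1 TBT library 11 lies highest, at 291 CPM for the 281 bp fragment.

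Near-equal values within an intron were common. Of 204 intronic members, 196 shared an intron with at least 1 other LTR locus, over 138 introns. In Jam3, a junctional adhesion molecule gene, 4 members of 171 to 831 bp each averaged 5.62 CPM in F1 P6. In Ddr2, a collagen receptor gene, 3 members of 77 to 4009 bp averaged 5.22 to 5.28 CPM in F1 P6. In Nr1d2, a nuclear receptor gene of the circadian clock, 5 members of 422 to 4061 bp averaged 16.2 to 16.5 CPM in F1 P4. In other introns the members stood apart, as in Immp2l, where 3 members ran from 0.137 to 4.06 CPM in F1 P5. The lowest value among LTR loci of the same intron, summed over members, equalled 92.7%, 70.5% and 95.9% of MMERGLN reads in these shared introns in F1 P4, P5 and P6, and 81.2%, 50.1% and 95.8% in F3. Only the part above that shared floor can differ between loci of an intron, and it was largest in P5.

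Within a generation, P4 and P5 shared a table and could be tested. In F1, the MMERGLN-int total ran from 366 to 533 CPM in P4 (median 427) and from 545 to 929 CPM in P5 (median 655), with no overlap. It rose by 0.63 ± 0.08 on the log2 scale (95% confidence interval 0.47 to 0.78, limma adjusted p = 1.7e-07), which is 1.55-fold. The LTR total ran from 106 to 171 CPM in P4 (median 126) and from 146 to 323 CPM in P5 (median 179), which overlapped, and rose by 0.54 ± 0.10 (adjusted p = 9.8e-05). With loci under a mean of 5 reads left out, the LTR change was 0.067 and did not pass (adjusted p = 0.281), and the internal change was 0.36. Restricted to loci outside genes, the changes were 1.496 for internal regions and 1.95 for LTRs. For comparison, 23.8% of species totals were called higher in P5, and the median change over all species was −0.06.

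In F3, the internal total ran from 223 to 465 CPM in P4 (median 380) and from 181 to 1301 CPM in P5 (median 837). The groups overlapped only through P5 TBT library 5, and every other P5 library stood above every P4 library. The difference was 1.09 ± 0.30 on the log2 scale (95% confidence interval 0.47 to 1.71) and just missed the threshold (adjusted p = 0.0503), where 2.36% of species were called higher. Without the 4 libraries under 2000000 reads it was 1.28 and passed (adjusted p = 3.5e-05), and with the label number as a replicate block it was 1.09 and also passed (adjusted p = 0.010). The LTR total, at 98.2 to 321 CPM in P4 and 50.7 to 675 CPM in P5, differed by 0.58 ± 0.35 (adjusted p = 0.577), and by 0.88 without those libraries (adjusted p = 0.015).

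Related families rose more, except that in F3 the rise of RLTR1B-int was not told apart from that of MMERGLN-int. RLTR1B-int, MuRRS-int and MMVL30-int are internal regions of other gammaretrovirus-like families, with 793, 986 and 951 loci. In F1 all 3 totals rose in P5, by 0.90 ± 0.12, 1.90 ± 0.16 and 0.87 ± 0.09 on the log2 scale (adjusted p = 7.2e-07, 4.6e-10 and 6.5e-09). In F3 MuRRS-int and MMVL30-int rose, by 2.48 ± 0.29 and 1.61 ± 0.32 (adjusted p = 2.0e-05 and 0.0030), and RLTR1B-int differed by 1.22 ± 0.33 (adjusted p = 0.0503). Ratios within a library do not depend on the scaling and were tested between P4 and P5 libraries of the same label number (exact sign-flip permutation test, two-sided, adjusted over 8 ratios). The ratio of MMERGLN-int to MuRRS-int fell from a median of 6.26 in P4 to 2.80 in P5 in F1, and was lower in P5 in each of 11 pairs (adjusted p = 0.0078). In F3 its median fell from 4.16 to 1.96, with 9 of 9 pairs lower (adjusted p = 0.016). MMERGLN-int also fell relative to MMVL30-int, by 0.25 on the log2 scale in F1 (adjusted p = 0.018) and by 0.52 in F3 (adjusted p = 0.025). Relative to RLTR1B-int it fell by 0.28 in F1 (adjusted p = 0.018), while the F3 difference of −0.13 missed the threshold (adjusted p = 0.547). The ratio of LTR to internal region changed by −0.07 in F1 (adjusted p = 0.34) and was −0.51 in F3 (adjusted p = 0.026). The F3 call was lost without pairing (adjusted p = 0.071), and label numbers were not shown to pair the libraries. Restricted to loci outside genes, MMERGLN-int fell relative to MMVL30-int by 0.94 in F1 (adjusted p = 0.0039) and by 0.73 in F3 (adjusted p = 0.0078). There the ratio of LTR to internal region rose by 0.49 in F1 (adjusted p = 0.025) and was −0.29 in F3 (adjusted p = 0.281).

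Among single loci in F1, 85 members passed the filter of a mean of at least 5 reads, and 45 of these (52.9%) rose in P5 and 5 (5.88%) fell. Over all loci tested, 17.6% rose and 21.6% fell, and with each library scaled to the same total 21.0% rose and 11.4% fell. Of the internal regions, 42 of 62 rose and 3 fell, and of the LTRs 3 of 23 rose and 2 fell. Shares differed with position over all loci too. Outside genes 22 of 30 members rose, where 42.5% of all such loci did. In introns 21 of 46 rose and 5 fell, where the shares were 16.1% and 22.8%, and in exons 2 of 9 rose, where 21.0% did. The median change was 1.06 over members tested and −0.11 over all loci, and outside genes these were 2.15 and 0.76. Several of these loci share an intron, so that they are not independent. The filter took P4 and P5 together, and 31 of the 85 loci reached it only through P5, where they were then bound to be higher. Of the 54 that reached it in P4 alone 17 (31.5%) rose and 5 (9.26%) fell, where 12.6% and 23.8% of all loci that did so rose and fell, and 1204 members were not tested. With a mean of at least 20 reads 4 of 20 members rose, where 12.1% of all loci did, and with no filter 124 of 867, where 5.74% did, so these counts describe the loci tested and not the family.

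Of the 85 members tested in F1, 2 had no overlap between P4 and P5 libraries, a share near that over all loci. Both were LTRs and higher in P5, where 2.11% of all loci were higher and 0.753% lower without overlap. MMERGLN_LTR at chr11:6526893-6527304, in an intron of the noncoding RNA gene Snhg15 on the same strand, ran from 1.03 to 7.64 CPM in P4 and from 9.25 to 22.2 CPM in P5. It rose by 2.02 ± 0.23 on the log2 scale (adjusted p = 1.7e-08), and its F3 difference was 1.09 ± 0.77 (adjusted p = 0.742). MMERGLN_LTR at chr19:21791061-21791494, in an intron of the hyaluronidase gene Cemip2, ran from 0 to 1.25 CPM in P4 and from 1.55 to 4.17 CPM in P5. The difference was 2.29 ± 0.32 (adjusted p = 8.5e-07) in F1 and 1.94 ± 0.74 (adjusted p = 0.266) in F3, but this LTR reached the filter only through P5, as described above, so that its call carries no weight.

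In F3, 128 members were tested, and 5 (3.91%) rose and 0 fell, where 1.00% and 0.0112% of all loci did. These were 4 of 88 internal regions and 1 of 40 LTRs, and 3 of 68 members outside genes, where 4.47% of such loci rose. The change was positive in 105 of the 128, with a median of 1.45 against −0.09 over all loci, and 53 were higher and 1 lower at an unadjusted p under 0.05, where 8.38% and 1.99% of all loci were. In F3 79 of the 128 reached the filter only through P5, where they were then bound to be higher. The 105 positive changes, the median and the counts at an unadjusted p are thus set in part by the filter. Of the other 49, 1 rose, where 0.0801% of all loci that reached it in P4 alone did. With no filter 0 of 790 members rose, where 0.0822% of all loci did, and with a mean of at least 20 reads 0 of 25, where 0.580% did. Leaving out 1 library at a time, 0 to 23 rose, with 23 without P5 TBT library 5. The shares over all loci at these settings are not given here, so the range describes the tested members only. With the replicate block 11 members rose, where 1.84% of all loci did. Without the libraries under 2000000 reads 24 members rose, where 3.24% of all loci did, and edgeR's quasi-likelihood test called 35 members higher, where it called 6.16% of all loci in either direction. Of the 45 loci that rose in F1, 35 were tested in F3. Of these, 3 were called in both generations. The share over all loci is not given here, so this count is not read as a result about the members. Of the 45, 28 had reached the F1 filter only through P5. No member was without overlap between P4 and P5 in F3, where 0.111% of all loci were higher and 0.00510% lower without overlap.

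**Figure D4:**
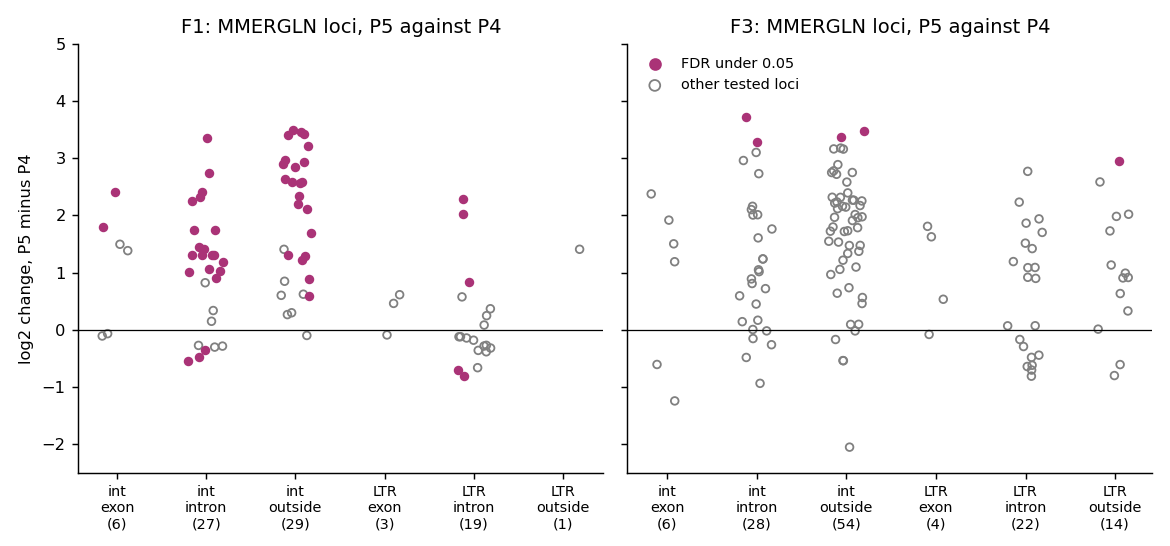
Log2 change from P4 to P5 of each MMERGLN locus tested, by position of the locus, in F1 (85 loci) and F3 (128 loci), with loci past an adjusted p of 0.05 filled. In F1 most filled points lie above 0 and many are outside genes; in F3 most points lie above 0 but only 5 are filled.

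The complete proviruses were nearly silent in P4 and were read in P5. Their sum was 4.10 ± 3.56 CPM in F1 P4 (0.985 to 12.8) and 53.3 ± 44.8 CPM in F1 P5 (15.6 to 152), with no overlap, and 56.4 ± 33.8 CPM in F1 P6. In F3 it was 4.12 ± 3.14 CPM in P4 (0 to 10.2), 86.2 ± 73.0 CPM in P5 (0 to 238) and 79.4 ± 24.7 CPM in P6. Each of the 37 proviruses had a read in at least 1 F1 P5 library and in at least 1 F3 P5 library, while 23 had one in F1 P4 and 21 in F3 P4. Single libraries held reads of 1 to 8 proviruses in F1 P4 and of 20 to 37 in F1 P5.

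This set was chosen after values of the data had been seen, so its comparisons carry no test. Between libraries of the same label number, the sum was higher in P5 in each of 11 F1 pairs, by 3.70 ± 1.13 on the log2 scale (SD over pairs), or 13.0-fold. In F3 it was higher in each of the 6 pairs without a library at 0, by 4.03 ± 1.20, or 16.3-fold. Of the 3 pairs with a library at 0, P5 was higher in 2, and the remaining pair is TBT 5, whose P5 library of 246520 reads held none. The 561 other LTR loci of at least 7000 bp outside genes differed by 1.84 ± 0.36 in F1 and 2.11 ± 0.71 in F3, higher in P5 in each pair. MMERGLN internal regions outside genes other than complete proviruses differed by 1.38 ± 0.42 and 1.53 ± 0.65, also higher in each pair. Complete proviruses outside genes alone gave 3.73 over 10 F1 pairs and 3.92 over 6 F3 pairs.

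Per length the proviruses lay near other long loci in P4 and above them in most P5 libraries. Outside genes, they averaged 0.0113 CPM per kb in F1 P4 and 0.173 CPM per kb in F1 P5, against 0.0153 and 0.0557 for the other long loci. They were the higher set in 5 of 12 libraries of F1 P4 and in 10 of 11 of F1 P5, so that the P4 sets overlapped. In F3 these values were 0.0167 and 0.292 CPM per kb for proviruses, and 0.0203 and 0.0950 for the other long loci, and they were the higher set in 3 of 9 libraries of P4 and in 8 of 9 of P5. In somatic cells the proviruses were the lower set on average, at 0.0745 against 0.193 CPM per kb in F1 P6 and 0.0485 against 0.222 in F3 P6. The F1 P6 mean rested on TBT libraries 7 and 8, at 0.214 and 0.303 CPM per kb and above their other long loci, while the remaining libraries lay between 0.0177 and 0.0696. Complete proviruses made up 0.948% of the internal total in F1 P4 and 7.85% in F1 P5, and 1.12% and 10.1% in F3.

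Single proviruses differed in where they were read. The one on chromosome 8 (chr8:121832845-121841264, in exons of Gm20388 and Gm42047), whose LTR is printed above, had identical LTRs and a frame of 1180 codons. It averaged 33.3 CPM in F1 P6 and 62.7 CPM in F3 P6, and so made up most of the provirus reads there, against 1.09 and 0.296 CPM in P4 and 4.92 and 7.16 CPM in P5 of F1 and F3. A provirus outside genes at chr14:55978733-55987140 averaged 0.231, 4.90 and 0.867 CPM in F1 P4, P5 and P6. One in an intron of Immp2l, a mitochondrial peptidase gene, at chr12:41265407-41273814, was at 0 in all P4 libraries of both generations and averaged 4.06 CPM in F1 P5 and 4.62 CPM in F3 P5. By contrast one in an intron of Adgrl3, an adhesion receptor gene, at chr5:81625629-81634042, was highest in P6, at 2.29 CPM in F1 and 4.75 CPM in F3. How reads that fit several copies were placed is not given in the sources used here, so the values of single proviruses and of their sum are uncertain to that extent.

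**Figure D5:**
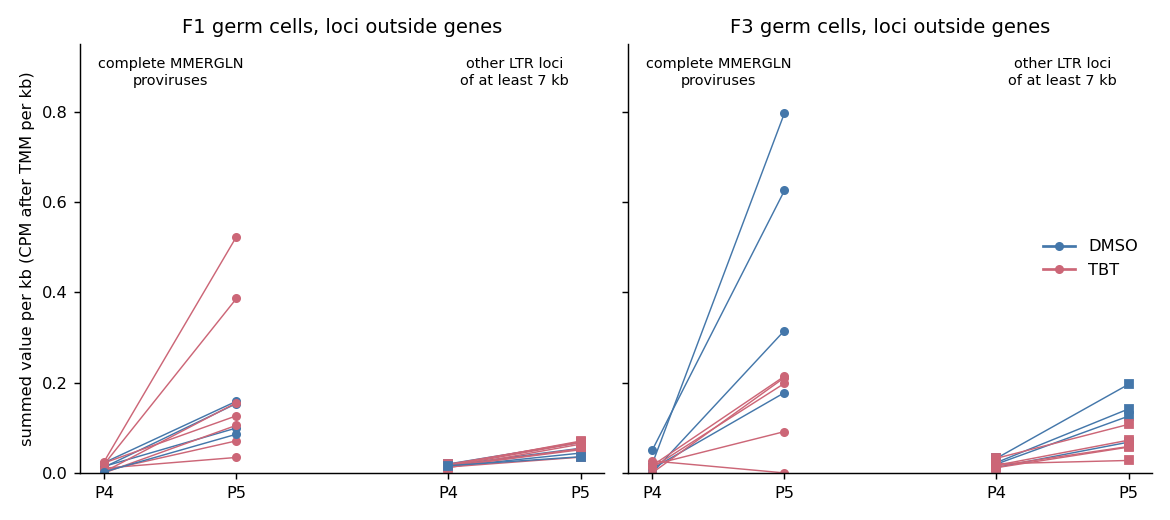
Summed level per kb in CPM of complete MMERGLN proviruses outside genes and of other LTR loci of at least 7 kb outside genes, with each line joining the P4 and P5 libraries of 1 label number in F1 (left) and F3 (right). The provirus lines rise from means of 0.0113 to 0.173 CPM per kb in F1, and in F3 only that of TBT 5 falls, to 0.

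Between the descendants of TBT-exposed and DMSO-exposed dams, neither species total differed past the threshold in any population (limma, adjusted over all species of a population; in F1 P4, P5 and P6, 0% of 673, 677 and 674 species were called, and in F3 0% of 674, 677 and 670). The lowest unadjusted p of either total in any population was 0.0517. The median TBT change over all species was −0.41 in F3 P4 and −0.18 in F3 P5, and at most 0.06 in size elsewhere. In F1 P5 the internal total was 545, 558, 622 and 663 CPM in DMSO libraries and 567 to 929 CPM (median 700) in TBT libraries. The upper 4 TBT libraries lay above all DMSO libraries and all had 47 as the first part of their label number, while the 3 with 45, at 567, 608 and 655 CPM, lay within the DMSO range. The difference was 0.27 ± 0.12 on the log2 scale (95% confidence interval −0.00 to 0.53, adjusted p = 0.901). In F3 P5 it was 830, 837, 1112 and 1301 CPM in DMSO and 181, 761, 768, 903 and 950 CPM in TBT libraries. The direction was thus opposite, at −0.69 ± 0.52 (adjusted p = 0.998), with overlapping groups, and without TBT library 5 it was −0.25 (adjusted p = 0.496).

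In P4 the internal total was 366, 404, 423, 430 and 437 CPM in F1 DMSO libraries against 381 to 533 CPM (median 462) with TBT, a difference of 0.11 ± 0.08 (adjusted p = 0.502). In F3 P4 it was 270, 336, 414 and 434 CPM against 223, 360, 380, 435 and 465 CPM, or 0.02 ± 0.28 (adjusted p = 0.977). In P6 it was 946, 1091, 1172, 1281 and 1383 CPM against 1071 to 1858 CPM (median 1283) in F1, or 0.16 ± 0.12 (adjusted p = 0.744). In F3 P6 it was 931, 962, 1180 and 1459 CPM against 907, 984, 1036, 1082 and 1198 CPM, or −0.10 ± 0.11 (adjusted p = 0.833). The groups overlapped in each of these populations. For internal loci outside genes alone, the F1 P6 sum was 17.3 to 40.8 CPM in DMSO libraries and 15.4 to 59.6 CPM in 5 TBT libraries, but 237 and 283 CPM in TBT libraries 7 and 8. The difference there was 1.25 ± 0.66 (adjusted p = 0.272), and 1.67 ± 0.84 for LTRs outside genes (adjusted p = 0.272).

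For the LTR total, the TBT minus DMSO differences on the log2 scale were 0.11, 0.32 and 0.07 in F1 P4, P5 and P6 and −0.60, −1.05 and 0.05 in F3, with adjusted p from 0.516 to 0.998. In F3 P5 it was 250, 365, 388 and 675 CPM in DMSO and 50.7, 186, 217, 301 and 407 CPM in TBT libraries. Without TBT library 5 the F3 P5 difference of the LTR total was −0.57. For LTRs outside genes alone, the F3 P6 difference was −0.72, with sums of 1.53 to 7.44 CPM. The effect of TBT did not differ between P5 and P4 past the threshold. The interaction was 0.16 ± 0.15 for internal regions and 0.21 ± 0.22 for LTRs in F1 (adjusted p = 0.997), and −0.71 ± 0.59 and −0.45 ± 0.72 in F3 (adjusted p = 0.999). Without P5 TBT library 5 the F3 values were −0.27 and 0.029.

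The sum over complete proviruses carries no test, as above. In F3 P5 it was 62.3, 84.0, 167 and 238 CPM in DMSO and 0, 24.1, 61.3, 63.1 and 76.2 CPM in TBT libraries, so that 3 DMSO libraries lay above all TBT libraries. In F1 P5 it was 22.5, 36.9, 42.0 and 44.7 CPM in DMSO and 15.6 to 152 CPM (median 37.1) in TBT libraries, and in F1 P6 it was 29.1 to 64.0 CPM (median 39.9) against 16.2 to 130 CPM (median 55.7). The groups overlapped in each case.

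Among single members, 0 of 52, 168 and 56 tested in F1 P4, P5 and P6, and 0 of 57, 171 and 59 in F3, passed an adjusted p of 0.05 by limma, where 0%, 0.0106%, 0.00341%, 0%, 0% and 0.0343% of all loci did. edgeR's quasi-likelihood test also called 0 members, where it called 0%, 0.00327%, 0.00341%, 0%, 0% and 0.0582% of all loci. Its likelihood ratio test, the one the study names, called 1, 4 and 2 members in F1 and 0, 2 and 2 in F3, where it called 0.0982%, 0.320%, 0.050%, 0.00463%, 3.13% and 0.320% of all loci. At an unadjusted p under 0.05 the members numbered 7, 36, 2, 0, 6 and 4, where 7.09%, 6.89%, 3.68%, 1.65%, 1.01% and 7.96% of all loci were. In F1 P5, 35 of the 36 were higher with TBT, or 35 of 168 tested, where 4.64% of all loci were higher and 2.25% lower. Of members outside genes 24 of 81 were higher, where 15.7% of all such loci were. The median TBT change of members in F1 P5 was 0.40 against 0.03 over all loci, and outside genes 0.62 against 0.37. In F3 P5 it was −0.63 against 0.15 over all loci, and outside genes −0.72 against −0.52. In P5 the medians of members and of all loci outside genes thus had the same sign, higher with TBT in F1 and lower in F3. They differed in sign in F3 P4, at −0.54 for 26 members outside genes against 0.02 over all loci outside genes. In F1 P6 only 5 members outside genes were tested, with a median of 1.23 against −0.06, and TBT libraries 7 and 8 stood apart there as given above.

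The locus of lowest p in F1 P5 was the 1841 bp internal fragment at chr5:72563861-72565701, outside genes. Its 4 DMSO libraries held 10.04, 11.5, 15.8 and 17.04 CPM and its TBT libraries 17.9 to 38.0 CPM (median 21.9), with no overlap. The difference was 0.90 ± 0.21 on the log2 scale (limma adjusted p = 0.212, edgeR likelihood ratio adjusted p = 0.028). It also rose in F1 P5 against P4 by 1.31 ± 0.20 (adjusted p = 4.2e-06). In F1 P6 the internal region of a complete provirus overlapping Vmn1r88, a vomeronasal receptor gene (chr7:13168945-13176507), was at 0 in all 5 DMSO libraries. Among TBT libraries it held 9.86 CPM in library 7, 7.47 in library 8, 1.63 in library 5 and 1.05 in library 9, and 0 in the others (limma adjusted p = 0.999, edgeR likelihood ratio adjusted p = 0.0011). TBT libraries 7 and 8 also had the highest shares of reads outside genes among F1 P6 libraries, and the part of this in the result was not tested.

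In F3 P6 the lowest p belonged to a 4227 bp internal fragment overlapping an exon of Kif24, a kinesin gene, at chr4:41447588-41451814. It held 0.394, 0.450, 0.496 and 1.39 CPM in DMSO and 2.06, 2.07, 2.79, 3.74 and 4.04 CPM in TBT libraries, with no overlap. The difference was 1.91 ± 0.40 (limma adjusted p = 0.111, edgeR likelihood ratio adjusted p = 0.0095). In the opposite direction, a 7578 bp internal region in an intron of Gm49692 at chr12:20226754-20234331 held 3.57, 16.5, 18.01 and 19.3 CPM in DMSO and 0.257, 2.07, 2.39, 4.92 and 9.15 CPM in TBT libraries. The groups overlapped through 1 DMSO library, and the difference was −2.21 ± 0.56 (limma adjusted p = 0.244, edgeR likelihood ratio adjusted p = 0.012). This region rose in P5 against P4 in both generations, by 2.42 ± 0.34 in F1 (limma adjusted p = 9.5e-07) and 3.72 ± 0.97 in F3 (limma adjusted p = 0.0493). The F3 call lay just past the threshold, and the members called higher in F3 ran from 0 to 35 over the other settings.

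In F3 P5 the lower member of lowest p was the internal region of a complete provirus outside genes at chr6:7719534-7727060. DMSO libraries held 4.98, 5.54, 8.86 and 10.3 CPM, and TBT libraries held 1.17 and 1.28 CPM in 2 libraries and 0 in 3. The difference was −3.71 ± 1.35 (limma adjusted p = 1.00). In F3 P4 the highest locus of the family, at chr2:156831133-156833492, was the higher member of lowest p, at 15.0, 36.2, 80.6 and 84.6 CPM in DMSO and 40.6, 116, 124, 145 and 150 CPM in TBT libraries (1.25 ± 0.60, adjusted p = 0.870). In F1 P4 a 4654 bp internal region overlapping the lincRNA gene Gm32772 at chr7:17306427-17311080 held 3.20, 9.83 and 12.1 CPM in 3 DMSO libraries, 0 in the other two, and at most 0.781 CPM with TBT (−2.48 ± 0.96, limma adjusted p = 0.681, edgeR likelihood ratio adjusted p = 0.0014). The remaining members chosen by lowest p in a direction had adjusted p from 0.657 to 1.00. They were LTRs in introns of Nup214 (1.03, F1 P4), Npl (−1.12, F1 P5) and Ednra (−0.17, F1 P6), and LTRs outside genes on chromosome 16 (−2.20, F3 P4) and chromosome 18 (2.04, F3 P5).

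Methylated DNA was enriched with a methyl-CpG binding domain (MBD) protein and counted in 100 bp windows in P6 cells only. Of the windows, 65 in F1 overlapped 48 members and 99 in F3 overlapped 71 members. After filtering on low counts 34 and 67 were tested, and 0 passed an adjusted p of 0.05 (edgeR quasi-likelihood), where 0.0318% of all windows did in F1 and 0% in F3. At an unadjusted p under 0.05 there were 2 of the 34 and 4 of the 67. The share over all windows at that cut is not given here, so these counts are not read as a result about the members. The median TBT change over tested member windows was 0.005 in F1 and 0.056 in F3 on the log2 scale, against 0.002 and 0.006 over all windows. Total counts ran from 701493 to 1913353 in F1 and from 1105120 to 1556376 in F3 libraries, and these counts limit the precision of a window's value.

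The F1 window of lowest p lay in an internal region outside genes at chr17:94668001-94668100. It held 21.4, 27.7 and 31.3 CPM in DMSO and 15.3, 18.03, 18.3 and 22.7 in TBT libraries, from 15 to 35 reads in each (−0.56 on the log2 scale, adjusted p = 0.974). The F3 window lay in an LTR outside genes at chr3:22263901-22264000, with 18.9, 19.4, 25.3, 25.4 and 30.5 CPM in DMSO and 15.4 to 42.1 (median 34.5) in TBT libraries (0.44, adjusted p = 0.916). The groups overlapped at both windows.

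Across the 23 F1 germ cell libraries, the species totals that followed the MMERGLN-int total most closely were RLTR10-int (Spearman's rho 0.898) and MMVL30-int (0.889), where the median over 610 species was −0.236. Across the 18 F3 germ cell libraries they were IAPEY3C_LTR (0.938) and RLTR13E (0.932), where the median over 615 species was 0.226. The libraries share scaling and the difference between P4 and P5, and the leading species differed between generations. MMERGLN_LTR, the family's own repeat, ranked 27 in F1 (0.795) and 71 in F3 (0.709).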

How the data were processed

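The authors deposited RNA values per LTR locus of RepeatMasker on GRCm38/mm10 as signal, read counts scaled to CPM after TMM in edgeR, in 4 tables (F1 and F3, germ and somatic cells) normalised separately. They had made oligo-dT SMART-seq libraries without strand, sequenced 75 + 75 nt pairs, trimmed them with Trim Galore, aligned them with STAR and counted with a modified ERVmap. How reads that fit several copies were placed is not given in the sources used here. Methylated DNA was deposited as raw read counts per 100 bp window with, as another column, the CpG number of a window.

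Within a tolerance of 0.02, 100% of values in every library were whole reads, which gave the reads per library. Loci with a mean of at least 5 reads were tested with limma (3.58.1, R 4.3.3) on log2(value + 1 read), so that changes of low loci are understated, with Benjamini-Hochberg adjustment over all loci tested. Species totals were tested likewise over all species, P5 against P4 with exposure as a term. Windows were tested with edgeR (4.0.16) quasi-likelihood after TMM and filterByExpr. In simulated data with 200 loci changed 4-fold at a coefficient of variation of 0.3, the F1 P5 TBT comparison recovered 131 and the F3 P5 comparison 95. That spread was set and not taken from the data, so these numbers do not give the recovery to be had among the members. Starts are printed counting from 1. Loci were named as the 8 highest, the lowest p for TBT in each direction and population, the P5 against P4 calls without overlap and the MBD windows of lowest p. The single proviruses, the shared introns, the set of complete proviruses, the totals without the Ptn loci and the counts of loci that reach the filter in P4 alone were chosen after values had been seen. The members and lists as a whole were chosen with earlier results of these data known. TBT and DMSO libraries share no label numbers. In F1 germ cells several libraries share the first part of their label number. The labels do not say which libraries share a litter or whether each is 1 fetus, so p-values measure the spread between libraries. Counting intervals were not computed for totals, and zeros cover counting error only. Alternatives comprised other scalings, pseudocounts, filters, tests and left-out libraries.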

Additional observations from a re-analysis of the deposited data

Results flagged for a closer look

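Of 60 groups of 4 to 7 libraries examined for a library far from the others, 2 were flagged, where chance flags about 1 in 20 groups. The MMERGLN-int total of F1 P6 TBT library 11 was 1858 CPM, the highest of its group, with the others between 1071 and 1348 CPM. This library had 2824806 recovered reads, the fewest in F1 P6, and its 5 internal fragments in the Ptn intron were at 291 to 293 CPM each. The MMERGLN-int total of F3 P5 TBT library 5 was 181 CPM, the lowest of its group, with the others between 761 and 950 CPM. This library had 246520 recovered reads, the fewest of all, and no read in a complete provirus. The part of depth in either value was not tested.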

How the results depend on the processing

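Over 40 results, 814 recomputed values were compared, of which 742 kept their direction and side of the threshold or their count within 1.5 times. Restricted to loci outside genes, the TBT differences of the totals were −0.039 for LTRs in F1 P4, −0.11 for internal regions in F3 P4 and −0.72 for LTRs in F3 P6, each with the opposite sign, those for internal regions and LTRs in F1 P6 were 1.25 and 1.67 against 0.16 and 0.07 with all loci, and the LTR to internal ratio of P5 against P4 was 0.49 in F1 and −0.29 in F3. The F3 P5 against P4 change, 1.09 for the internal total and 0.58 for the LTR total with all loci, was 1.66 and 1.36 outside genes, 1.40 and 0.89 with each library scaled to the same total, 1.66 and 1.15 with median-ratio scaling, and 1.28 and 0.88 without the libraries under 2000000 reads, all past the threshold. For the internal total it was also past it with edgeR's quasi-likelihood test (1.29) and with a pseudocount of 0.25 reads (1.09, adjusted p = 0.049). The F1 LTR change was 0.067 when loci under a mean of 5 reads were left out, and no longer passed (adjusted p = 0.281).

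TBT loci past the threshold were 1, 4, 2, 2 and 2 in F1 P4, P5, P6, F3 P5 and F3 P6 with the likelihood ratio test, and 14 of 838 in F1 P5 and 1 of 230 in F3 P6 with no filter, where 0.202% and 0.0367% of all loci were. Loci higher in P5 in F1 were 124 with no filter and 4 with a mean of at least 20 reads. Loci lower in P5 in F1 were 2 with no filter or the same total, and 3 with median-ratio scaling or the quasi-likelihood test, where 2.87%, 11.4%, 12.4% and 14.4% of all loci were. Loci higher in P5 in F3 were 0 with no filter or a mean of at least 20 reads, 8 with the same total or median-ratio scaling (1.25% and 1.59% of all loci), 35 with the quasi-likelihood test (6.06%) and 24 without the libraries under 2000000 reads, an alternative chosen after seeing the data for loci. The cause of these differences was not tested, beyond the number of loci that each filter leaves.

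Same-numbered P4 and P5 libraries deviated together (correlation over 0.1) in 7 of 11 pairs in F1 (lowest −0.08, median 0.28, own number best in 7) and in 7 of 9 in F3 (lowest −0.33, median 0.41, own number best in 4), so the numbers do not establish pairs. With the label number as a replicate block the F3 internal change was 1.09 (adjusted p = 0.010) and loci higher in P5 in F3 were 11, and no other call changed. Without pairing, the F3 LTR to internal ratio was −0.51 (adjusted p = 0.071).

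Leaving out 1 library at a time, the F3 P5 against P4 change ran from 1.01 to 1.35 for the internal total (past the threshold without P5 TBT library 5 or P4 TBT library 6) and from 0.45 to 0.85 for the LTR total (past it without P5 TBT library 5). Loci higher in P5 in F3 ran from 0 to 23 (23 without P5 TBT library 5), and loci lower in F1 from 3 to 8. The shares over all loci with 1 library left out are not given here. The TBT difference of the internal total ran from −0.12 to 0.19 in F3 P4, changing sign without DMSO library 1 or 3 or TBT library 6, 7 or 8, and from −0.19 to 0.025 in F3 P6, changing sign without DMSO library 3. The LTR interaction in F3 ran from −0.72 to 0.029, changing sign without P5 TBT library 5. The F3 LTR to internal ratio ran from −0.62 to −0.39 and missed the threshold without pair 1, 3, 5, 7 or 9 (adjusted p = 0.052). The shallowest libraries were F3 germ cell libraries, which limits those results, and few reads per 100 bp window limit the methylation results, as at the F1 window of lowest p with 15 to 35 reads.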
